A study of Mus musculus with 5 samples.

Results

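The 46 genes described here are interferon-stimulated genes of the mouse, taken by symbol from the 33696 genes listed for each of 5 single-cell RNA libraries of peripheral blood mononuclear cells (PBMCs). All 46 symbols were found in the files. The list was made by name and function, but with earlier results of these data known.

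The cells came from C57BL/6N mice, an inbred laboratory strain whose age and sex are not given in the labels used here. In 2 libraries the mice had regular chow, the control. In 2 libraries they had a high-fat diet (HFD) together with L-NAME, an inhibitor of endothelial nitric oxide synthase, for 15 weeks, a regimen used to induce heart failure with preserved ejection fraction. In 1 library the mice had the same diet and L-NAME for 15 weeks and, in the last 4 weeks, NO2-OA, a nitrated oleic acid. Blood cells were taken from a Ficoll interphase, passed through red-cell lysis, frozen, thawed and captured with 10x Genomics 3′ v3.1 chemistry. The labels number the libraries within a group but do not say whether each came from 1 animal, so p-values measure only the spread between these libraries, which may be technical. The regimen was compared with chow, and NO2-OA with the regimen; both comparisons use the same HFD + L-NAME libraries.

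Interferons are cytokines that put cells into an antiviral state. Type I interferons act through a complex that includes STAT2 and IRF9 and binds the interferon-stimulated response element (ISRE), whereas interferon gamma acts mainly through the gamma-activated site (GAS). The genes they switch on include RNA binders (IFIT proteins), the 2′-5′ oligoadenylate synthetases (OAS), Mx proteins that block viral nucleocapsids, the ubiquitin-like ISG15, guanylate-binding proteins (GBPs) and immunity-related GTPases (IRGs) that attack vacuoles of intracellular pathogens, and DNA-binding PYHIN proteins. In blood, monocytes are known to answer type I interferon strongly, and GBPs and IRGs are known to answer interferon gamma in many cell types.

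The promoters of 6 members are shown because they carry the letters these factors bind and belong to the genes on which the results below turn. Each run is the 140 bases before the start site, 5′ to 3′ on the gene's own strand, from the RefSeq table for GRCm38.p6, a different build from that of the count files. Capitals mark the ISRE-type letters GAAA-NN-GAAA (N is any base), or their reverse complement, and the GAS-type letters TTCNNNGAA. Overlapping matches run together.
Ifit1: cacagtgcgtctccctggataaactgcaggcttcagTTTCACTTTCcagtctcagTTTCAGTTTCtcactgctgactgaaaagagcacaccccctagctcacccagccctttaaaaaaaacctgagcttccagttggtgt
Isg15: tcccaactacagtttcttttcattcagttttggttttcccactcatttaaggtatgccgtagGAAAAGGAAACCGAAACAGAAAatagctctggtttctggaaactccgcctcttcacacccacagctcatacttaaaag
Rsad2: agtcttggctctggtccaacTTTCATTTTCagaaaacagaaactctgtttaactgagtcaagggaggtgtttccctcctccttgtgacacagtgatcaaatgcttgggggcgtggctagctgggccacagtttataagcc
Gbp2: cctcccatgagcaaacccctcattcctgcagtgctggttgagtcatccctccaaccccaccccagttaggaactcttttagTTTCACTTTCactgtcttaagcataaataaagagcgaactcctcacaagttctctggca
Igtp: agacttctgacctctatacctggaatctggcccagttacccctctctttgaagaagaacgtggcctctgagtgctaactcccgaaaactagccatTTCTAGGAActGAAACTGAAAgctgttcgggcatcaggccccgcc
Irf1: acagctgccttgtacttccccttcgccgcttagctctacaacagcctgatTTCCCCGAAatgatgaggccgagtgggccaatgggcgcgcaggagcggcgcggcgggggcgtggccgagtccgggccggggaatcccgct

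The Ifit1 promoter lies at chr19:34640749-34640888 on the + strand, that of Isg15 at chr4:156200819-156200958 on the − strand and that of Rsad2 at chr12:26456453-26456592 on the − strand. Those of Gbp2, Igtp and Irf1 lie on the + strand at chr3:142620523-142620662, chr11:58199416-58199555 and chr11:53769874-53770013. In these windows Ifit1, Isg15, Rsad2 and Gbp2 held ISRE-type letters, Irf1 held GAS-type letters, and Igtp held both. The table has 36 of the 46 members. Within 250 bases before and 50 after a start site, either strand counted, the ISRE-type letters occurred in 20 of the 36 and in 3.99% of 27025 genes in the table. The GAS-type letters occurred in 9 of the 36 and in 9.55% of all. Members with the ISRE-type letters were 6 of 7 GBPs and IRGs, 3 of 4 IFIT genes and 1 of 4 transcription factors. A match is a description of letters, not a binding site.

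The libraries held 71216133 to 122022000 unique molecular identifiers (UMIs, 1 per captured RNA molecule) in 8488 to 17997 barcodes, with a median of 5741 to 7043.5 UMIs a barcode. After filters 7165 to 14771 cells a library were kept. Pairs of libraries shared 28 to 77 barcode sequences, at most 0.613% of the smaller library. Cells were clustered with no member among the genes used, and each cluster took its name from marker genes, with "-like" added. T-like cells were split by their UMIs of Cd4 and of Cd8a and Cd8b1. The macrophage-like class was present in only 2 libraries (119 cells of chow 2 and 340 of HFD + L-NAME 2), and the neutrophil-like class had 12 cells in chow 2, too few for a level. Libraries differed in their cells: HFD + L-NAME 2 had 94 classical monocyte-like and 193 Cd4 T-like cells, where the other libraries had 250 to 628 and 597 to 1024.

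Levels are given as CPM, the UMIs of a gene scaled to a common total of UMIs in a class and library. Members differed in the cell class with their highest level. The order is among 11 named classes only, since 602 cells of unnamed clusters and 5647 T-like cells with UMIs of neither or both of Cd4 and Cd8 were left out. Bst2 was among the 10 leading genes of 1 unnamed cluster of 438 cells with dendritic cell markers, so its top class among all cells is uncertain. Rsad2 was likewise among the 10 leading genes of an unnamed cluster of 152 cells with erythroid markers, 119 of them from the NO2-OA library. Of the 46, 21 had their highest median level in classical monocyte-like cells, 8 in neutrophil-like, 5 in Cd4 T-like, 3 each in erythroid-like, platelet-like and regulatory T-like, 2 in macrophage-like and 1 in Cd8 T-like cells. None had it in B-like, NK-like or non-classical monocyte-like cells. For 11 members every library of the top class lay above every library of every other class. At a median of at least 16 CPM in the top class this held for 10 of 37 members, beside 33.2% of all genes at that level, so the members' share was not above that of other genes.

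**Figure D1:**
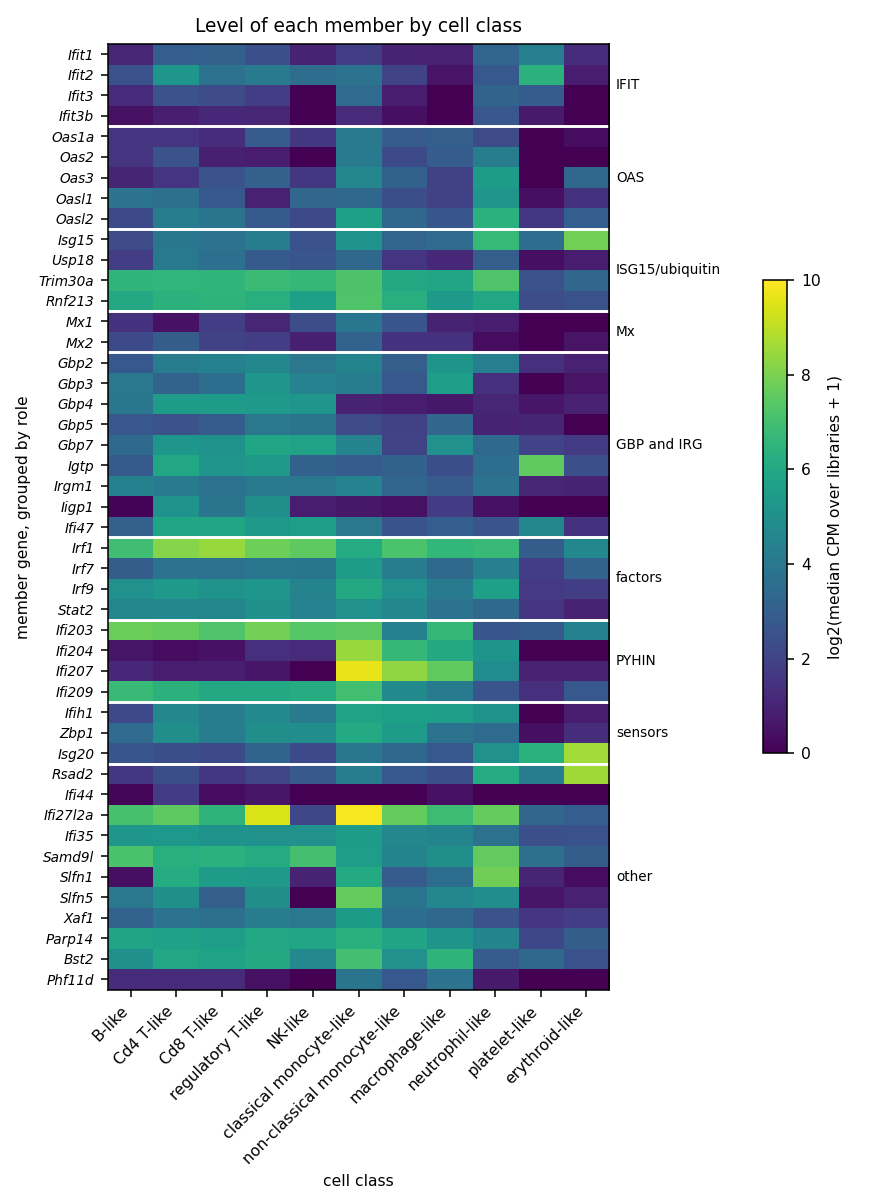
Median level of each of the 46 members (vertical) in each of 11 cell classes (horizontal) over the libraries with at least 20 cells of the class, as log2(CPM + 1) by colour. Brighter colours are higher levels. Classical monocyte-like cells hold the highest median of 21 members, and the erythroid-like column is bright only for a few genes, among them Rsad2, Isg15 and Isg20.

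The PYHIN genes Ifi207 and Ifi204, DNA-binding proteins of the myeloid line, marked the monocytes. Ifi207 had 903, 504, 1037, 746 and 808 CPM in classical monocyte-like cells of chow 1, chow 2, HFD + L-NAME 1, HFD + L-NAME 2 and NO2-OA, and at most 407 CPM in any library of another class. Both genes were among the genes that set the classical monocyte-like cluster apart, so their place there is a description. In contrast Ifi203 and Ifi209, the members of this family with the highest level over all cells, were found in lymphocytes too. Ifi203 had 233 to 259 CPM in regulatory T-like cells and reached 284 CPM elsewhere, and Ifi209 had 104 to 220 CPM in classical monocyte-like cells and up to 128 CPM in other classes.

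Ifi27l2a, which encodes a small membrane protein induced by type I interferon, had 735 to 1223 CPM in classical monocyte-like cells and 518 to 815 CPM in regulatory T-like cells, which overlap. Cd4 T-like cells outside the regulatory cluster had 103 to 209.6 CPM and NK-like cells 0 to 6.62 CPM. Among regulatory T-like cells 61.9% to 78.7% held a UMI of Ifi27l2a, and 39.9% to 52.1% after each cell was thinned to 2000 UMIs, while in NK-like cells the unthinned share was 0% to 3.09%. Median depths in NK-like cells were 4918 to 8864.5 UMIs. Slfn5, a Schlafen family gene, had 171 to 301 CPM in classical monocyte-like cells and at most 80.1 CPM in any library elsewhere, whereas its relative Slfn1 had 194 to 274 CPM in neutrophil-like cells and at most 105 CPM elsewhere.

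Another set of members was highest in erythroid-like cells. In erythroid-like cells Rsad2, the antiviral enzyme viperin, had 654, 382, 457, 345 and 382 CPM in chow 1, chow 2, HFD + L-NAME 1, HFD + L-NAME 2 and NO2-OA, and at most 207 CPM in a library of any other class. Isg20, an RNA exonuclease, had 218 to 407 CPM in erythroid-like cells and at most 113 CPM elsewhere, in platelet-like cells. Isg15, the ubiquitin-like modifier, had 221 to 430 CPM against at most 126 CPM, in neutrophil-like cells. In all 5 libraries the erythroid-like cells thus stood above all other named classes for these 3 genes, including chow 2, which had only 27 such cells.

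Every other member had at most 50.6 CPM in any library of these cells, where the 8 erythroid markers took up 710251 to 897662 CPM. Ifit2 had 0 to 1.75 CPM in erythroid-like cells, Mx1 0 to 0.745 CPM, Ifi204 0 to 0.252 CPM and Iigp1 no UMI in any library. Rsad2 was carried by most erythroid-like cells. A UMI of Rsad2 was found in 83.3%, 70.4%, 83.9%, 82.4% and 75.2% of them, and in 34.6% to 63.2% after thinning. B-like cells held it in 0.701% to 1.61%, and in 0.311% to 0.557% after thinning, at median depths of 5204 to 7796 UMIs beside 6006.5 to 10170 UMIs in erythroid-like cells. Thinning left out 1 to 8 erythroid-like and 64 to 187 B-like cells a library as too shallow. Isg15 was found in 45.2% to 52.9% of erythroid-like cells with a UMI of Rsad2 and in 0% to 30.4% of those without. The same pair went together in classical monocyte-like cells (50% to 70% against 13.6% to 24%) and in neutrophil-like cells (39.4% to 64% against 10.9% to 24.2%). In B-like cells the shares were 10% to 14.5% and 1.75% to 3.28%. These shares were not thinned, so deeper cells had more chance to hold both genes.

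Platelet-like cells had their own members. Ifit2, an IFIT RNA binder, had 83.7, 116, 90.0, 73.0 and 86.0 CPM there and at most 44.7 CPM in a library of another class, in Cd4 T-like cells. Ifit1 had 5.60 to 43.8 CPM in platelet-like cells and reached 22.9 CPM elsewhere. Igtp, an IRG also called Irgm3, had 180.3, 276, 141, 385 and 190.0 CPM in platelet-like cells, which overlap with Cd4 T-like cells at 28.6 to 143 CPM. The group levels in platelet-like cells rest on few UMIs in 2 libraries, with 53 UMIs of Ifit2 in chow 2 and 19 in NO2-OA. Other members were at their highest in neutrophil-like cells: Oasl1, an OAS-like protein, had 32.0 to 81.6 CPM there and at most 29.9 CPM elsewhere, while Oasl2 (73.7 to 94.9 CPM) and Trim30a (124 to 198 CPM), a ubiquitin ligase, overlapped with classical monocyte-like cells.

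**Figure D2:**
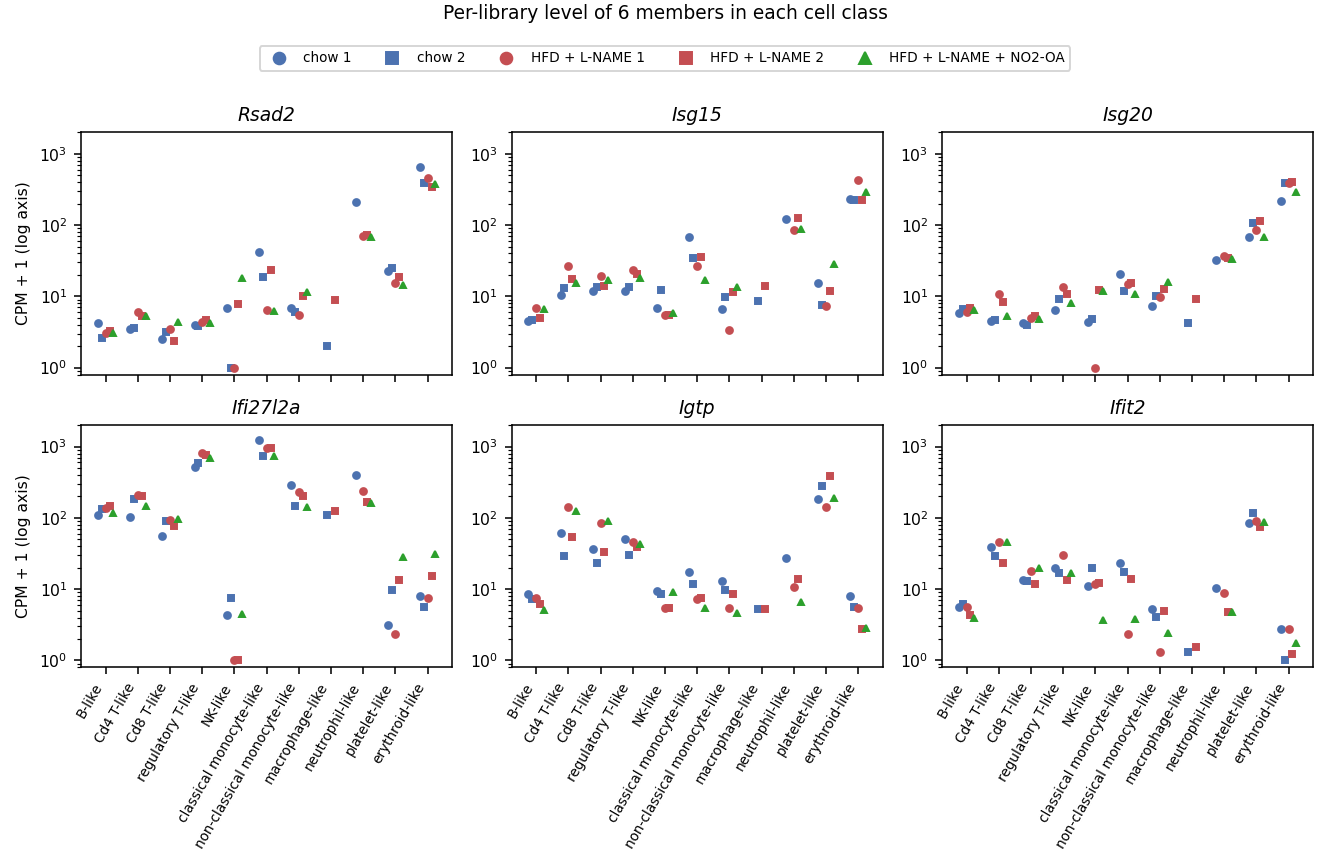
Level of 6 members in each library, as CPM + 1 on a log axis, by cell class. Each point is 1 library, coloured by group. Rsad2, Isg15 and Isg20 are highest in erythroid-like cells in every library, Ifit2 in platelet-like cells, and Ifi27l2a spans 0 CPM in NK-like cells to 1223 CPM in classical monocyte-like cells.

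Irf1, a transcription factor induced by interferon gamma, differed from Irf7 and Irf9, which amplify type I interferon. Irf1 had 217 to 402 CPM in Cd8 T-like and 192 to 396 CPM in Cd4 T-like cells, which overlap, and 54.7 to 123 CPM in classical monocyte-like cells. Irf7 was the reverse, with 24.2 to 77.1 CPM in classical monocyte-like cells and 6.89 to 13.9 CPM in Cd8 T-like cells. Irf9 had 55.4 to 101 CPM in classical monocyte-like cells and up to 70.7 CPM elsewhere, in Cd4 T-like cells. Mx1, which blocks influenza-type viruses in mice with an intact gene, had 8.20 to 46.8 CPM in classical monocyte-like cells and at most 8.32 CPM elsewhere, so 1 library of the top class fell just inside the others. Rnf213, a large ubiquitin ligase (110.0 to 302 CPM), and Zbp1, a sensor of Z-form nucleic acids (57.2 to 104 CPM), were also highest at the median in classical monocyte-like cells and overlapped with other classes.

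In classical monocyte-like cells most members were lower with HFD + L-NAME than with chow. Of 45 members measured after the filter on low counts, 42 had a log2 fold change below 0, and the median over the 45 was −0.59 beside −0.01 over all 11690 genes tested. In 23 of them both HFD + L-NAME libraries lay below both chow libraries, beside 15.4% of all genes, and in none did both lie above, beside 14.3% of all genes. No member passed the threshold: edgeR's quasi-likelihood test with Benjamini-Hochberg adjustment over all genes called 0 members and 0.00855% of all genes, and the smallest adjusted p of a member was 0.178. Unadjusted p was under 0.05 for 15 members, beside 3.91% of all genes, and DESeq2 called 0 members with 8 at an unadjusted p under 0.05.

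The GBPs and IRGs were among these. All 9 had a fold change below 0 with a median of −1.25, and 8 of the 9 did not overlap between groups. Ifi47, an IRG, had 59.7 and 36.9 CPM with chow, 15.0 and 14.1 CPM with the regimen and 13.9 CPM with NO2-OA, with levels between libraries here and below scaled by edgeR's TMM method. The regimen libraries lay close together, well below both chow libraries, with a log2 fold change of −1.71 (SE 0.33) and −1.96 and −1.36 within replicates 1 and 2. Gbp2 had 47.4 and 30.8 CPM with chow, 12.6 and 21.7 CPM with the regimen and 16.3 CPM with NO2-OA (−1.25, SE 0.36). Gbp3 and Irgm1, of the same families, had −0.94 (SE 0.35) and −1.08 (SE 0.41), and Irgm1 was highest in chow 1 at 60.02 CPM beside 24.4 in chow 2. Gbp7 was the exception, with groups that overlapped (24.6 and 21.3 CPM against 21.8 and 16.6 CPM). Iigp1, with 11 UMIs over both chow libraries and 0 with the regimen, was at least 3.56-fold lower at a floor of 3 counts over the group.

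Both Mx genes and all 4 IFIT genes were lower without overlap. Mx1 had 45.9 and 34.1 CPM with chow, 13.8 and 14.1 CPM with the regimen and 8.38 CPM with NO2-OA (−1.52, SE 0.31). Ifit3 had 20.2 and 20.1 CPM with chow, 1.80 and 10.2 CPM with the regimen and 0.689 CPM with NO2-OA (−2.08, SE 0.65). The spread between the regimen libraries was wide for Ifit3, and few cells carried it. With chow 27 of 250 and 25 of 336 cells held a UMI, with up to 13 and 19 UMIs in 1 cell. With the regimen 7 of 359 and 5 of 94 cells held a UMI, with up to 3 and 6 UMIs. Reads of Ifit3 and its near-identical neighbour Ifit3b may be divided between them, so each value is uncertain. These genes and others outside the naming rule were chosen after their values were seen.

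Of the 45 members 3 had a fold change above 0, and some members of high level lay near 0. Ifi207 had 886 and 501 CPM with chow and 1073 and 734 CPM with the regimen (0.38, SE 0.32). Ifi204 had 462 and 258 CPM with chow and 399.6 and 325 CPM with the regimen (0.01, SE 0.30). Ifi27l2a had 1199 and 742 CPM with chow and 992 and 933 CPM with the regimen (−0.01, SE 0.28). For Ifi204 and Ifi27l2a the chow libraries spanned those of the regimen, and for Ifi207 the groups overlapped. Irf1 had 120.4 and 81.2 CPM with chow and 56.6 and 69.7 CPM with the regimen (−0.68, SE 0.28), and Isg15 65.1 and 33.6 CPM against 26.8 and 33.9 CPM, where 1 chow library lay within the regimen range.

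The size of the shift depended on single libraries. Within replicates 1 and 2 the median over members was −1.16 and −0.08, and it ran from −0.95 without chow 2 to −0.17 without chow 1. Calls made without 1 library were 1 (without chow 1), 5 (without chow 2), 5 (without HFD + L-NAME 2) and 0 (without HFD + L-NAME 1), and with no filter on low counts edgeR called 5: Gbp2, Ifi47, Ifit2, Ifit3 and Mx1.

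**Figure D3:**
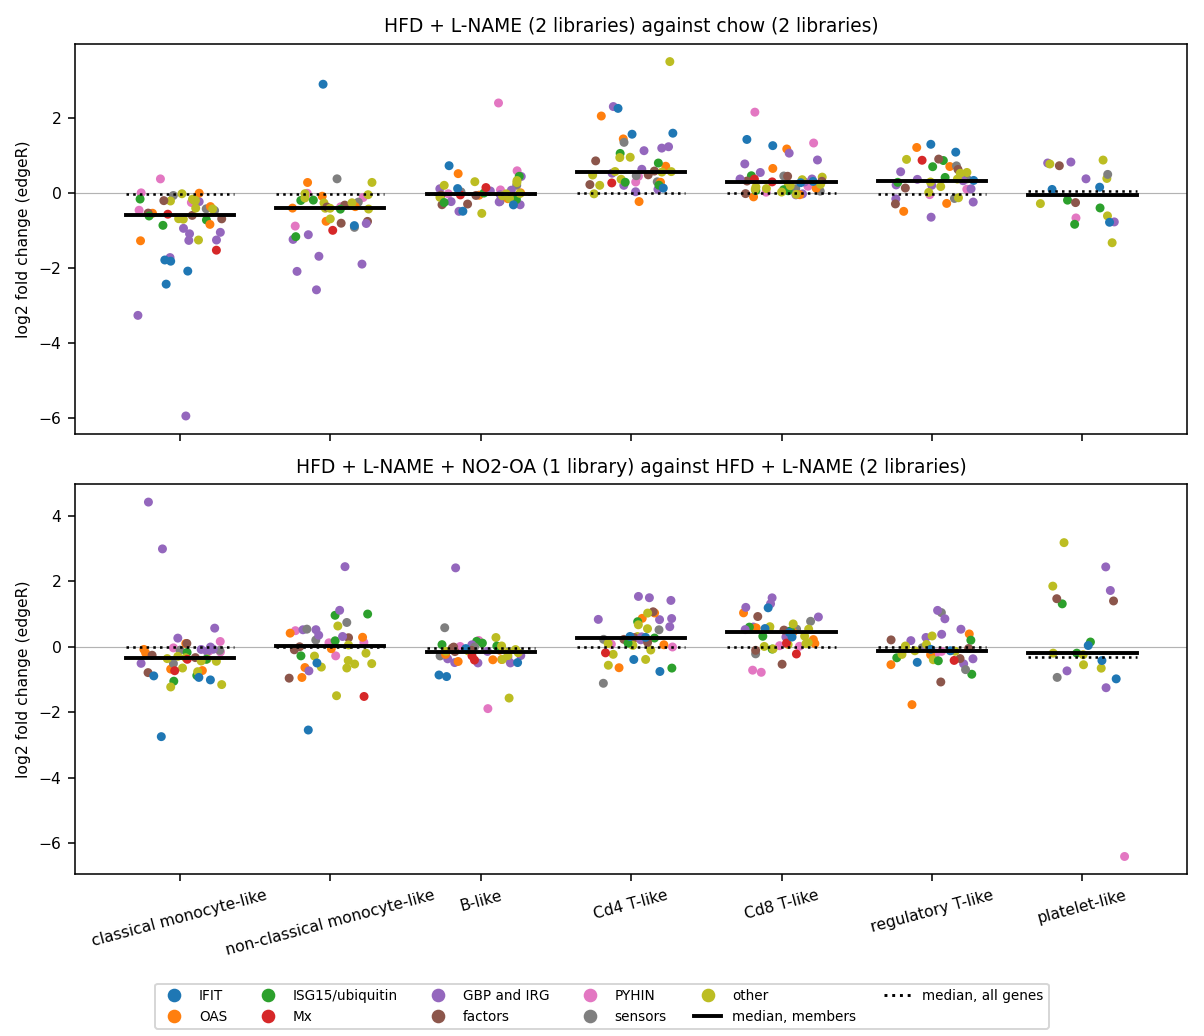
Log2 fold change of each measured member (1 point each) by cell class, for HFD + L-NAME against chow and for NO2-OA against HFD + L-NAME, with the median of the members as a solid and that of all genes tested as a dotted line. The regimen points lie mostly below 0 in both monocyte-like classes (medians −0.59 and −0.40) and mostly above 0 in Cd4 T-like cells (0.57), and both comparisons share the HFD + L-NAME libraries.

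Non-classical monocyte-like cells, the patrolling kind, had the same direction. Of 40 members measured, 36 had a regimen fold change below 0 (median −0.40, all genes −0.01), and 19 were lower without overlap, beside 13.7% of all genes; none was higher without overlap, beside 14.7%. edgeR called 0 members and 0% of all genes, with 6 members at an unadjusted p under 0.05 (2.82% of all genes) and a smallest adjusted p of 0.935. DESeq2 called 0, with 7 at an unadjusted p under 0.05. Medians within replicates were −0.72 and −0.17, and the median was −0.17 without chow 1.

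Gbp2 had 46.3 and 13.4 CPM with chow, 3.69 and 6.399 CPM with the regimen and 7.19 CPM with NO2-OA (−2.57, SE 0.68). The chow libraries differed more from each other than the regimen libraries did, and all regimen values lay below them. Zbp1 had 79.4 and 66.7 CPM with chow and 33.9 and 44.1 CPM with the regimen (−0.91, SE 0.22), and Ifi203 31.0 and 21.4 CPM against 15.7 and 12.8 CPM (−0.87, SE 0.29). Irf1 was highest in chow 1, with 299.8 and 146 CPM with chow and 114 and 142 CPM with the regimen (−0.80, SE 0.34; −1.39 and −0.03 within replicates). Stat2 likewise had 47.1 and 23.6 CPM against 22.8 and 19.2 CPM (−0.75, SE 0.35). The 7 measured GBPs and IRGs had a median of −1.68, and 6 were lower without overlap. Ifit1 went the other way at 0.974 and 0.679 against 0.308 and 12.8 CPM, and the 12.8 CPM came from 2 cells, 1 of which held 35 UMIs. With no filter edgeR called 6 members (Gbp2, Ifi47, Irf1, Irgm1 and Zbp1 lower, Ifit1 higher), and without chow 2 it called 4.

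RNA of other cells moved with the groups in these classes. The summed level of the 8 erythroid markers in non-classical monocyte-like cells was 94.2 and 43.1 CPM with chow, 3422 and 8679 CPM with the regimen and 17745 CPM with NO2-OA, with all 8 higher in the regimen libraries than in chow. In classical monocyte-like cells it was 84.8 and 48.6, 167 and 285, and 6580 CPM, with 5 of 8 higher. Cells with more than 1% of their UMIs from haemoglobin genes numbered 0 and 0 with chow, 2 and 4 with the regimen and 18 with NO2-OA in the non-classical class, and 0 in every library but NO2-OA, with 17, in the classical class. Leaving those cells out of each tested class was an alternative chosen after the data were seen. It changed no count of called members and no direction of the members named by smallest p. In the classical class it removed no chow or HFD + L-NAME cell, so it could hardly change the regimen result there. The difference between monocyte-like and B-like cells and the sums over all kept cells were not refitted without those cells. Neutrophil markers in classical monocyte-like cells summed to 208 and 192, 267 and 238, and 355 CPM, with 4 of 10 higher, and their part in the result was not tested.

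The tested difference between classes was that of classical monocyte-like and B-like cells. B-like cells, the class with most cells, had members on both sides: 20 of 45 members were above and 25 below 0 (median −0.01, all genes −0.01), 8 were higher and 2 lower without overlap, beside 10.7% and 12.4% of all genes. edgeR called 0 of them (0% of all genes), with 0 at an unadjusted p under 0.05, and DESeq2 likewise 0 and 0. Ifi47 had 7.23 and 8.02 CPM with chow and 7.52 and 8.41 CPM with the regimen in B-like cells, and Bst2, which encodes the virus-tethering protein tetherin, 27.6 and 27.7 against 34.8 and 35.3 CPM (0.34, SE 0.18). A term for the difference of the regimen effect, with the library as a block, called Ifi47 and Gbp2 among 46 members and 0.246% of 17069 genes. For Ifi47 the effect in monocytes minus that in B-like cells was −1.72 (SE 0.39, edgeR adjusted p = 0.00995) and for Gbp2 −1.61 (SE 0.41, edgeR adjusted p = 0.0444). The median over members was −0.66, and 15 members had an unadjusted p under 0.05, beside 3.84% of all genes. Without chow 1 the median over members was −0.50 and without HFD + L-NAME 1 it was −0.54. DESeq2 called 0 members, with 8 at an unadjusted p under 0.05, beside 0.958% of all genes.

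In Cd4 T-like cells the members leaned the other way. Of 42 measured, 40 had a regimen fold change above 0, with a median of 0.57 beside 0.00 over all genes. In 18 both regimen libraries were above both chow libraries, beside 12.4% of all genes, and in 0 were both below, beside 13.7%. edgeR called 0 members and 0% of all genes (smallest adjusted p 1.00), with 10 members at an unadjusted p under 0.05 beside 1.99% of all genes; DESeq2 called 0, with 7 at an unadjusted p under 0.05.

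Bst2 was high in both regimen libraries, with 37.8 and 44.8 CPM in the chow libraries, 82.5 and 77.2 CPM in the regimen libraries and 61.3 CPM with NO2-OA (0.95, SE 0.26; 1.11 and 0.78 within replicates). Regulatory T-like cells had a like pattern for it, at 40.8 and 50.4, 90.3 and 80.1, and 65.0 CPM (0.90, SE 0.26). In both T-like classes the regimen libraries lay above the others without overlap.

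For most other members HFD + L-NAME 1 was high and HFD + L-NAME 2 was near chow. Gbp5 had 2.67 and 3.73 CPM with chow, 24.4 and 4.94 CPM with the regimen and 46.2 CPM with NO2-OA (2.31, SE 0.62; 2.98 and 0.36 within replicates). Igtp had 57.6 and 29.4, 150.4 and 53.1, and 120.1 CPM (1.24, SE 0.53). Iigp1, an IRG, had 15.7 and 34.8, 81.1 and 32.1, and 155 CPM (1.21, SE 0.51; 2.34 and −0.12 within replicates). Usp18, which removes ISG15 and damps the receptor, had 9.83 and 13.9, 24.97 and 15.4, and 24.97 CPM (0.81, SE 0.36). The replicate medians over members were 1.07 and 0.01, and the median was 0.10 without HFD + L-NAME 1 and 0.97 without HFD + L-NAME 2. Without that second library edgeR called 6 members (Gbp5, Ifit1, Ifit3, Igtp, Iigp1 and Irgm1), without chow 1 it called 1 (Gbp5), without chow 2 it called 2 (Bst2 and Ifi27l2a) and with no filter 2 (Gbp5 and Igtp).

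**Figure D4:**
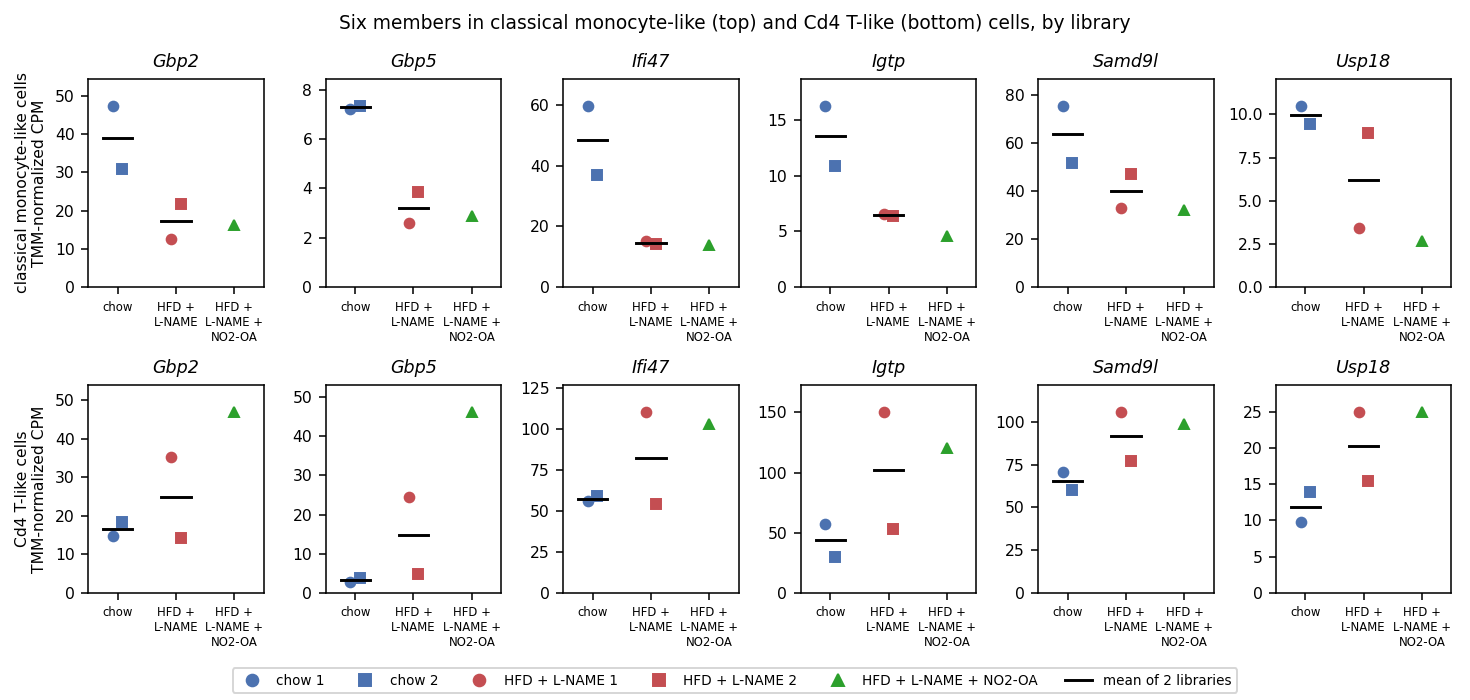
Level of Gbp2, Gbp5, Ifi47, Igtp, Samd9l and Usp18 in each library, as TMM-scaled CPM, in classical monocyte-like and Cd4 T-like cells. Each point is 1 library, coloured by group, and each line is the mean of 2 libraries. In monocyte-like cells the regimen and NO2-OA points lie below both chow points, and in Cd4 T-like cells HFD + L-NAME 1 and NO2-OA are the high libraries.

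Counted per cell, Cd4 T-like cells with several GBPs or IRGs were more frequent in the same libraries. After thinning to 2000 UMIs, cells with at least 2 of these 9 genes were 7.28% and 8.12% with chow, 24.8% and 8.81% with the regimen and 32.8% with NO2-OA. Cells with at least 3 were 1.296% and 2.03%, 7.20% and 0.518%, and 13.3%. NK-like cells, for comparison, had at least 2 in 4.69% and 5.70%, 2.70% and 0%, and 4.31%, and classical monocyte-like cells in 9.35% and 4.26%, 0.281% and 2.17%, and 1.78%. A UMI of Iigp1 was found in 6.23% and 14.5%, 25.8% and 14.5%, and 39.4% of Cd4 T-like cells before thinning, in 2.59% to 22.0% after it, and in 0% to 1.03% of NK-like cells. Median depths of Cd4 T-like cells were 5179 to 7735 UMIs, and thinning left out 0 to 25 of them a library.

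Cd4 T-like cells of the libraries fell into different clusters: cluster 4 held 4.06% and 2.45% of them with chow, 47.9% and 12.4% with the regimen and 86.6% with NO2-OA, and cluster 1 held 94.3% and 94.5%, 49.6% and 79.8%, and 8.40%. Because Iigp1 was among the leading genes of cluster 4, though not used to form it, the clusters were also read one by one. Gbp11, a gene outside the members, was among those leading genes too. Only the members were kept out of the clustering, so other interferon-stimulated genes could be used in it. Their part in the clusters was not tested. In cluster 1, led by the naive T-cell factor Lef1, the summed level of the 9 GBPs and IRGs was 221 and 235 CPM with chow, 468 and 229 CPM with the regimen and 563 CPM with NO2-OA. In cluster 18, of Cd8 cells, it was 219 and 182, 381 and 175, and 586 CPM. In cluster 6, led by the chemokine gene Ccl5 and by genes of cytotoxic cells, it was 179 and 198, 190.0 and 239.9, and 221 CPM. HFD + L-NAME 1 and NO2-OA were thus high in clusters 1 and 18, and in cluster 6 no library stood apart. Iigp1 in cluster 6 was at 1.99 to 5.77 CPM in all libraries, beside 12.7 to 83.4 CPM in cluster 1.

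**Figure D5:**
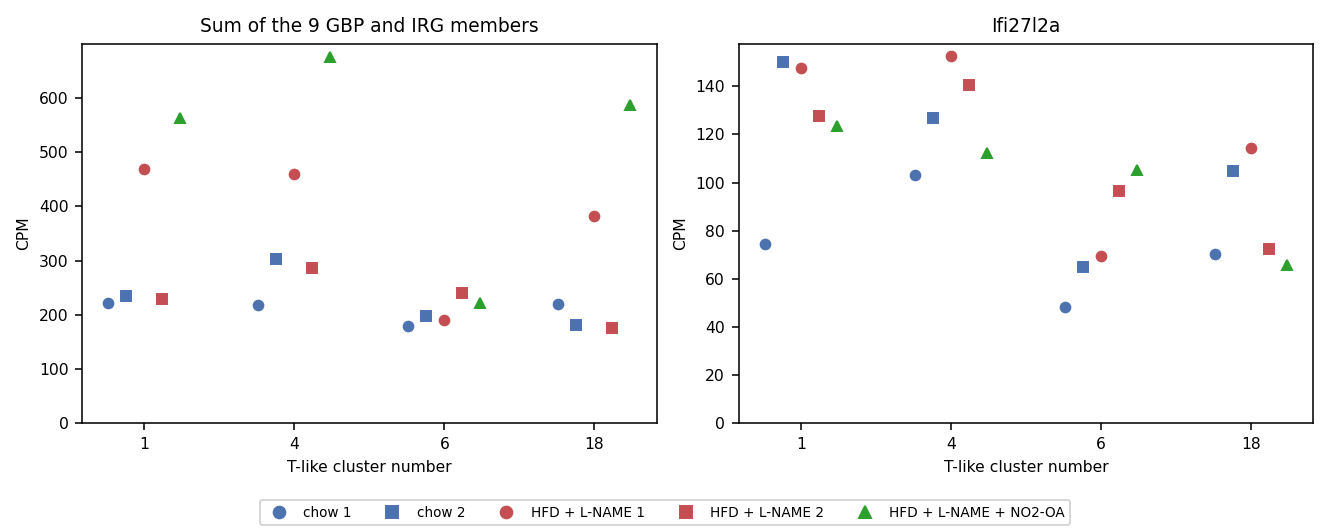
Summed level of the 9 GBPs and IRGs (left) and level of Ifi27l2a (right), in CPM, in the T-like clusters 1, 4, 18 and 6, with 1 point for each library, coloured by group. For the GBPs and IRGs the HFD + L-NAME 1 and NO2-OA libraries are above the other 3 in clusters 1, 4 and 18, and in cluster 6 all 5 lie between 179 and 239.9 CPM; Ifi27l2a has no such order.

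Cd8 T-like cells showed the same libraries high with smaller differences. For the regimen 39 of 45 members were above 0 (median 0.30, all genes −0.01), 9 were higher without overlap, beside 12.1% of all genes, and 0 were lower, beside 13.2%. edgeR called 0 (0% of all genes) with 2 at an unadjusted p under 0.05 beside 1.63% of all genes, and DESeq2 0 with 1. Igtp had 34.4 and 23.3, 88.0 and 31.9, and 87.7 CPM (1.07, SE 0.43), and Gbp2 14.5 and 17.7, 26.8 and 19.9, and 44.4 CPM (0.56, SE 0.26). The medians within replicates were 0.60 and −0.07, and without HFD + L-NAME 1 the median was 0.04. The clusters of Cd8 T-like cells differed between libraries too: cluster 4 held 1.57% and 0.333% of them with chow, 25.2% and 2.22% with the regimen and 53.2% with NO2-OA, and cluster 1 held 74.9% and 64.2%, 40.8% and 56.6%, and 14.002%. The part of these shares in the Cd8 T-like values, for the regimen and for NO2-OA, was not tested. Regulatory T-like cells had a median of 0.34 (0.48 and 0.00 within replicates; −0.02 without HFD + L-NAME 1), with 10 of 38 members higher and 1 lower without overlap, beside 13.4% and 14.8% of all genes. edgeR called 0 of them and 0.0262% of all genes (smallest adjusted p 0.991), with 3 at an unadjusted p under 0.05, and DESeq2 0 with 2; without chow 2 edgeR called 1.

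In platelet-like cells, of low depth, 20 members could be measured, 10 above and 10 below 0 for the regimen (median −0.04, all genes 0.06). In 2 the regimen libraries were higher and in 4 lower without overlap, beside 16.2% and 16.6% of all genes. edgeR called 0 (0.0308% of all genes) with 0 at an unadjusted p under 0.05, and DESeq2 0 with 0.

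Markers of other cells differed between groups in Cd4 T-like cells too. The summed erythroid markers were 179 and 85.1 CPM with chow, 889.6 and 472 CPM with the regimen and 1103 CPM with NO2-OA, with 4 of 8 higher without overlap. The summed neutrophil markers were 4.75 and 1.61, 17.8 and 45.4, and 34.3 CPM, with 6 of 10 higher. The 6 regulatory T markers summed to 91.8 and 132 CPM with chow, 193 and 122 CPM with the regimen and 205 CPM with NO2-OA, with 1 of 6 higher without overlap, so HFD + L-NAME 1 and NO2-OA were the high libraries, as for the GBPs and IRGs. Their part in the result was not tested.

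Several members were higher in T-like and lower in monocyte-like cells with the regimen. In Cd4 T-like against classical monocyte-like cells, Gbp3, Gbp5, Ifit3, Samd9l and Usp18 were higher in the first and lower in the second without overlap, 5 of 41 members beside 1.24% of all genes. Samd9l, which restricts poxviruses, had 70.8 and 60.3 CPM with chow against 106 and 77.2 CPM with the regimen in Cd4 T-like cells, and 75.6 and 51.9 against 32.8 and 47.3 CPM in classical monocyte-like cells. Gbp3 in Cd4 T-like cells was separated only after TMM scaling: in plain CPM it had 8.09 and 6.86 with chow and 7.45 and 7.98 with the regimen. Ifit3 there rested on 8 UMIs in HFD + L-NAME 2, at 4.91 CPM beside 4.75 in chow 1. The difference between T-like and monocyte-like cells was not tested.

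For NO2-OA there is 1 library, so its spread was taken to be that of the other groups. In Cd4 T-like cells 31 of 42 members were higher with NO2-OA than in the mean of the regimen libraries (median 0.26, all genes −0.01), 20 of them above both, beside 32.6% of all genes, and 5 below both, beside 31.1%. edgeR called 0 members and 0.0231% of all genes, with 7 at an unadjusted p under 0.05 beside 2.22% of all genes, and DESeq2 0 with 4. All 9 GBPs and IRGs were above 0, with a median of 0.84, and 7 were above both regimen libraries. Parp14, an ADP-ribosyltransferase, had 100.2 and 47.6 CPM with the regimen and 153 CPM with NO2-OA (1.03, SE 0.37), and Trim30a 119 and 80.3 CPM and 171 CPM (0.77, SE 0.32). For Gbp5 and Iigp1, whose levels are given above, the log2 fold changes were 1.54 (SE 0.61) and 1.42 (SE 0.57), and Gbp4 had 0.83 (SE 0.37).

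The size depended on the regimen library taken as reference. Against HFD + L-NAME 1 alone the median was 0.01 and against HFD + L-NAME 2 alone 0.90. Without chow 1, or with the 2 groups alone, edgeR called Gbp3, Gbp5, Iigp1 and Parp14. Without HFD + L-NAME 1 it called Gbp5, Iigp1, Irgm1 and Stat2, without chow 2 Gbp3, and with no filter Iigp1.

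In Cd8 T-like cells 37 of 45 members were above 0 with NO2-OA (median 0.45, all genes 0.00; 0.27 and 0.55 against each regimen library), 25 above both regimen libraries, beside 33.5% of all genes, and 3 below both, beside 30.9%. edgeR called 0 (0% of all genes), with 7 at an unadjusted p under 0.05 beside 1.59% of all genes, and DESeq2 0 with 5. Irgm1 had 12.02 and 13.1 CPM with chow, 19.5 and 12.6 CPM with the regimen and 37.7 CPM with NO2-OA (1.21, SE 0.33). Stat2, the partner of IRF9, had 34.4 and 20.5 CPM and 53.0 CPM (0.93, SE 0.34), and Ifih1, the RNA sensor MDA5, 17.4 and 17.7 CPM and 30.2 CPM (0.78, SE 0.29). In each of these the NO2-OA library was above all 4 others.

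The direction was the other in classical monocyte-like cells. In classical monocyte-like cells 38 of 45 members were below 0 with NO2-OA (median −0.33, all genes 0.00), 30 below both regimen libraries, beside 28.5% of all genes, and 5 above both, beside 30.3%. edgeR called 0 members and 0.0428% of all genes, with 3 at an unadjusted p under 0.05 beside 1.61% of all genes, and DESeq2 0 with 1; without HFD + L-NAME 1 edgeR called 1, Ifit3. Xaf1, an apoptosis factor, had 43.2 and 42.2 CPM with the regimen and 25.3 CPM with NO2-OA (−0.76, SE 0.33), and Irf7 40.8 and 44.8 CPM and 24.7 CPM (−0.79, SE 0.36). Ifi47 and Gbp2, low with the regimen, had log2 fold changes of −0.07 (SE 0.39) and −0.01 (SE 0.43) with NO2-OA.

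In non-classical monocyte-like cells members went both ways, with a median of 0.03 (all genes −0.01). Above both regimen libraries were 18 of 40, beside 33.4% of all genes, and below both 14, beside 32.5%; edgeR called 0 (0% of all genes), with 4 at an unadjusted p under 0.05, and DESeq2 0 with 1. Ifih1 had 49.9 and 44.4 CPM with the regimen and 79.1 CPM with NO2-OA (0.75, SE 0.26), while Irf7 had 17.9 and 17.1 CPM and 8.99 CPM (−0.96, SE 0.35). In B-like cells 34 of 45 were below 0 (median −0.16, all genes −0.02), 23 below both regimen libraries, beside 33% of all genes, and 4 above both, beside 31.5%. edgeR called 0 there (0% of all genes) with 0 at an unadjusted p under 0.05, and DESeq2 0 with 0. Irgm1 had 21.0 and 19.9 CPM and 14.5 CPM (−0.49, SE 0.25) in B-like cells, opposite to its direction in Cd8 T-like cells, a difference that was not tested.

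In regulatory T-like cells 25 of 38 members were below 0 with NO2-OA (median −0.12, all genes −0.01), but the median was −0.23 against HFD + L-NAME 1 and 0.12 against HFD + L-NAME 2, so its sign depended on the regimen library. In 9 the NO2-OA library was above both regimen libraries, beside 31.2% of all genes, and in 12 below both, beside 30.6%. edgeR called 0 (0.0524% of all genes) with 2 at an unadjusted p under 0.05, and DESeq2 0 with 0. Gbp5 was higher there too, at 23.1 and 10.8 CPM with the regimen and 38.0 CPM with NO2-OA (1.11, SE 0.47). In platelet-like cells, with 100 cells in the NO2-OA library, 8 of 20 members were above both regimen libraries, beside 30.9% of all genes, and 9 below both, beside 49%. edgeR called 0 of them (0.123% of all genes) with 2 at an unadjusted p under 0.05, and DESeq2 0 with 1, and the median changed sign with the settings.

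Over all kept cells the members also follow which cells a library holds, and fewer cells of a type and less RNA per cell cannot be told apart there. Isg15 had 14.1 and 9.46 CPM with chow, 27.0 and 31.4 CPM with the regimen and 24.0 CPM with NO2-OA, and Isg20 11.1 and 7.15, 23.0 and 39.5, and 17.3 CPM. Both genes were highest in erythroid-like cells, which were 1.26% and 0.278% of kept cells with chow, 2.67% and 5.40% with the regimen and 2.97% with NO2-OA. For the regimen edgeR called 0 members (0% of all genes) with 4 at an unadjusted p under 0.05, and 11 of 46 were higher and 1 lower without overlap, beside 12.6% and 14.1% of all genes. DESeq2 called 1, Isg20, with a log2 fold change of 1.77 (DESeq2 adjusted p = 0.0101). For NO2-OA 33 of 46 members were above 0 (median 0.32, all genes −0.01), with medians of 0.11 and 0.41 against each regimen library. Above both regimen libraries were 27, beside 34.1% of all genes, and below both 8, beside 30.7%.

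The rest of the interferon pathway was read from lists of genes outside the members. Of 8 interferon genes, none passed the filter on low counts in classical monocyte-like cells and 1 did in Cd4 T-like cells: Ifng, which encodes interferon gamma, had 7.83 and 3.53 CPM with chow, 9.82 and 33.4 CPM with the regimen and 10.1 CPM with NO2-OA. In Cd8 T-like cells it had 12.5 and 13.3, 28.9 and 30.8, and 14.1 CPM (1.21, SE 0.25). In neither class did edgeR call Ifng for the regimen, beside 0% of all genes in each. Of 7 receptor and kinase genes, 8 signalling factors and brakes and 7 of 8 sensors measured in classical monocyte-like cells, edgeR called 0 in either direction for the regimen. Of 38 other interferon-stimulated genes 36 were measured there, with 8 above 0, a median of −0.32 and 0 called. Of these 10 were lower and 6 higher without overlap, beside 15.4% and 14.3% of all genes, so the higher count was near the share over all genes. In Cd4 T-like cells 27 of 35 were above 0, with a median of 0.25 and 0 called (0% of all genes). Of these 11 were higher and 1 lower without overlap, beside 12.4% and 13.7% of all genes. Socs3, a brake on cytokine receptors, had 85.3 and 84.5 CPM with chow and 168 and 158 CPM with the regimen in classical monocyte-like cells (0.94, SE 0.24), higher without overlap.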

How the data were processed

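Single-cell RNA libraries from mouse PBMCs were available as 1 matrix each. The values are counts of UMIs per gene and barcode, deposited as raw counts and not normalized; Cell Ranger 7.1.0 made them per the file headers, and bcl2fastq, Cell Ranger and the build mm39 are named per the submitters' processing notes. The gene annotation release and whether intronic reads were counted are not given in the sources used here.

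Barcodes with fewer than 200 genes or at least 10% mitochondrial UMIs were left out, and doublets were called with Scrublet in scanpy 1.11.5 at an expected rate of 6.79% to 14.4% and removed (522 to 2484 barcodes a library). Python 3.11.15, pandas 2.3.3 and scipy 1.17.1 were used. Cells were clustered with leidenalg 0.10.2 (resolution 1) from 40 principal components of 2000 variable genes and 20 neighbours, with the members left out. A cluster was named "X-like" from marker lists. The thresholds for naming were set after the data were seen.

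Counts were summed per library and class. Sums of a class were tested where each library held 50 cells or more, as were sums over all kept cells. R 4.3.3 and edgeR 4.0.16 fitted all 5 libraries at once by the quasi-likelihood method after TMM scaling and filterByExpr, with Benjamini-Hochberg adjustment over all genes and a threshold of 0.05. The spread therefore rests on the pairs of chow and HFD + L-NAME libraries. NK-like cells had 46 in 1 library and were not tested. The procedure was tried on simulated counts for the regimen comparison in classical monocyte-like and B-like cells only, and its outcome is not given here. The NO2-OA comparison and the difference between classes were not simulated. Levels across classes are plain CPM in classes with at least 20 cells. Shares of cells were recomputed after thinning to 2000 UMIs, and floors of 3 counts cover counting error only, since cells of 1 library are not independent samples.

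Named members were, by role, the 2 of highest level over all cells and, in 5 classes and both comparisons, the 5 with the smallest p at a mean of at least 4 log2 CPM, with every member past the threshold. Others were chosen after their values were seen. The members and lists were chosen with earlier results of these data known. Alternatives were DESeq2 1.42.0, other size factors, no filter, only the groups compared, a replicate block, each library left out, a 5% mitochondrial limit, doublets kept, members used in clustering and thinned sums.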

Additional observations from a re-analysis of the deposited data

Results flagged for a closer look

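The regimen effect differed between classical monocyte-like and B-like cells for 2 members by the test of the difference itself: −1.72 for Ifi47 and −1.61 for Gbp2 on the log2 scale. Both were lower with HFD + L-NAME in the monocyte-like cells, by libraries that did not overlap. In B-like cells Gbp2 had 4.15 and 6.63 CPM with chow and 5.23 and 9.51 CPM with the regimen, which overlap. Without chow 1 the differences were −1.39 and −1.06, and without HFD + L-NAME 2 they were −1.57 and −1.52. Neither gene was called in either setting, and which members were called changed with the library left out.

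Some members were higher with the regimen in T-like cells and lower in monocyte-like cells, with no overlap between chow and regimen libraries in either class. The number was 5 for Cd4 T-like and classical monocyte-like cells, and 5 when non-classical monocyte-like cells were set against Cd4 T-like cells (Gbp5, Ifi203, Ifi35, Rnf213 and Samd9l, beside 1.18% of all genes). It was 5 for Cd8 T-like and classical monocyte-like cells (Gbp2, Gbp3, Oas1a, Samd9l and Usp18, beside 1.31% of all genes) and 2 when the non-classical class was set against Cd8 T-like cells (Gbp2 and Samd9l, beside 0.859% of all genes). These differences were not tested, and they depend on the scaling: in plain CPM the groups overlapped for Gbp3 and Rnf213 in Cd4 T-like, Usp18 in Cd8 T-like, Oas1a in classical and Samd9l in non-classical monocyte-like cells. The counts share their libraries and are not independent of each other.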

How the results depend on the processing

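Of the counts of called members, 207 values under the alternatives were within 1.5 times of the reported one and 22 were not. Outside the difference between classes each reported count was 0, so a value was within only if it was 0 too. The share of all genes called under the alternatives is not given, so these counts cannot be set against it. Of the medians, 212 moved by less than the spread between replicates and 10 by more. That spread was 0.53 in Cd4 T-like and 0.47 in classical monocyte-like cells, close in size to the regimen medians of 0.57 and −0.59. A large move could therefore stay within it. With no filter on low counts edgeR called 2 (Cd4 T-like, regimen), 1 (Cd4 T-like, NO2-OA), 1 (Cd8 T-like, NO2-OA), 5 (classical monocyte-like, regimen) and 6 members (non-classical monocyte-like, regimen), in place of 0. With the 2 groups alone it called 4 in Cd4 T-like cells for NO2-OA, and DESeq2 called 1 over all kept cells for the regimen and 0 for the difference between monocyte-like and B-like cells.

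Leaving out 1 library at a time gave 0 to 6 calls in Cd4 T-like cells for the regimen and 0 to 4 for NO2-OA, 0 to 5 in classical monocyte-like cells for the regimen and 0 to 1 for NO2-OA, 0 to 4 in non-classical monocyte-like and 0 to 1 in regulatory T-like cells for the regimen, and 0 to 3 for the difference between classes. The medians over members ran from −0.023 to 0.93 (Cd4 T-like, NO2-OA), −0.28 to 0.19 (platelet-like, NO2-OA), −0.023 to 0.44 (regulatory T-like, regimen), −0.041 to 0.23 (all cells, regimen) and 0.10 to 0.43 (all cells, NO2-OA). The platelet-like median for NO2-OA was 0.12 by DESeq2, −1.10 at the 5% mitochondrial limit, 0.63 with doublets kept and −0.70 with thinned sums.

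The labels number replicates without naming a shared animal or batch, and there are 2 pairs, so the numbers were not taken as pairs; same-numbered libraries deviated together with r of 0.117 to 0.595 across genes. With the replicate block edgeR called 4 members in classical monocyte-like cells for the regimen (Gbp2, Ifi47, Ifit3 and Mx1). The median over all cells for NO2-OA was 0.13 with the block and 0.32 without it. Of named members 3 changed direction: Samd9l for NO2-OA in non-classical monocyte-like cells with doublets kept (0.026), Irf9 for the regimen in B-like cells (0.071 without chow 1, down to −0.55 without chow 2) and Iigp1 for the regimen in Cd8 T-like cells (−0.39 without HFD + L-NAME 1, up to 1.34 without HFD + L-NAME 2). The causes were not tested. With 94 classical monocyte-like and 193 Cd4 T-like cells in HFD + L-NAME 2, low members there rest on few UMIs, such as 16 for Ifit3 and 8 for Gbp5.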

Other observations

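Ifi207, at 0.848 to 1.60 CPM in B-like cells of 4 libraries, was at 11.1 CPM in those of HFD + L-NAME 2. There 81 of 2977 cells held a UMI, with up to 28 in 1 cell. The summed macrophage markers in B-like cells were 27.4 CPM in that library and 24.6 CPM in chow 2, the 2 libraries with macrophage-like cells, and 4.35 to 5.89 CPM in the others. Ifi207 in B-like cells of chow 2 was 1.09 CPM. Their part in the value was not tested.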
